A study of Mus musculus with 20 samples.

Results

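Principal cells of the collecting duct were followed in mouse kidneys after ischemia-reperfusion injury (IRI). They are the cells that the study named PC in its clustering of 18 single-cell RNA-seq libraries. This cluster held 4456 of 113579 cells, or 3.92%, and was the 11th largest of 18 clusters. Principal cells reabsorb sodium through the epithelial sodium channel under aldosterone, and water through aquaporin 2 (Aqp2) under vasopressin. Their enzyme Hsd11b2 inactivates glucocorticoids, so that the mineralocorticoid receptor responds to aldosterone. They share the collecting duct with intercalated cells (cluster IC), which secrete acid or bicarbonate, and they lie downstream of the loop of Henle (cluster LOH), which dilutes the tubular fluid, and of the distal convoluted tubule (cluster DCT), which reabsorbs sodium chloride. The tables used here give names and positions of cells and no UMI counts, so Aqp2 and Hsd11b2 were not analysed here and PC is used as the study's label.

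All mice were male C57Bl/6J animals of 10 to 12 weeks. Ischemia was made by clamping both renal pedicles for 23 min (IRI short) or 30 min (IRI long), and kidneys were taken 1 d, 3 d or 14 d later. There were 6 control libraries, for which the labels give no day and no operation, and 2 libraries at each day of each ischemia time. A library treated with VX-765 (100 mg/kg), which blocks pyroptosis, and a library treated with liproxstatin (10 mg/kg), which blocks ferroptosis, both at 14 d after IRI long, were added in a second clustering of 20 libraries with 136794 cells. The labels do not say that the untreated IRI long mice at 14 d received vehicle.

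Libraries held 2064 to 14320 cells in the first clustering, and there were 1580 principal cells in control. IRI short libraries held 1972 of them and IRI long libraries 904. The lowest numbers were 32 and 47 principal cells, in the IRI long libraries at 14 d. In control, 61 to 625 principal cells were found per library. Cell barcodes divided the libraries into a set of 5 controls and a set of the remaining control library (norm5) with all 12 IRI libraries. Most comparisons with control are therefore also given against norm5 alone, or by a limma fit with the barcode set as a term. Since norm5 is the only control of its set, that fit also sets each IRI group against norm5 alone, with a larger SE. Across libraries, 2728 cells shared a barcode with a cell of another library. Of these, 98 were principal cells, and 2 principal cells shared one with each other.

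The fraction of principal cells among all cells was lowest 14 d after IRI long. In the control libraries it was 2.68, 2.79, 3.87, 4.36, 4.41 and 5.85%, with a mean of 3.99 ± 1.18% (SD, n = 6). After IRI short it was 5.55 and 8.80% at 1 d, 2.89 and 4.75% at 3 d, and 2.58 and 3.17% at 14 d. After IRI long it was 2.18 and 6.37% at 1 d, 2.65 and 3.15% at 3 d, and 0.454 and 0.650% at 14 d. Both IRI long libraries at 14 d thus lay below every other library, and the libraries at 1 d after IRI long lay on either side of the control mean. Counting error alone gives the lowest value an exact 95% binomial interval of 0.311 to 0.640%.

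With all days in 1 group, no difference in the fraction of all cells passed the adjusted threshold of 0.05. The difference between IRI short and control was 0.628 percentage points (two-sided exact permutation test over libraries, p = 0.606, adjusted p = 0.707). Between IRI long and control it was −1.42 percentage points (exact permutation p = 0.190, adjusted p = 0.400), and 4 of 6 IRI long libraries were below all controls. With single libraries left out this difference ranged from −2.18 (without IRF5) to −0.994 (without IRF12). Between IRI long and IRI short it was −2.05 percentage points when labels were permuted within days (exact permutation p = 0.0463, adjusted p = 0.194). Against norm5 alone the differences were 0.212 percentage points for IRI short and −1.83 percentage points for IRI long. With the wider principal cell name of a second clustering, described below, the difference of IRI short from control turned to −0.461 percentage points, and that of IRI long from IRI short passed the threshold (−3.48, exact permutation p = 0.00926, adjusted p = 0.0486). The smallest p these tests allow is 0.00216 for 6 against 6 libraries and 0.00926 within days.

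Each day was compared on the logit scale with limma, fitted over all 18 clusters. The principal cell fraction at 14 d after IRI long fell by 1.98 against control (SE 0.34, adjusted p = 5.2e-05), in a comparison in which 72.2% of the clusters were called. Against IRI short at 14 d it fell by 1.67 (SE 0.42, adjusted p = 0.0130), where 33.3% of the clusters were called, and without the IRI long library IRF12 this call was lost (−1.50, adjusted p = 0.109). Over all days the limma difference of IRI long from IRI short was −0.86 (SE 0.24, adjusted p = 0.0137, 27.8% of clusters called), and this call was lost when any of 4 libraries, IRF3, IRF1 and IRF12 among them, was left out (−0.68 to −0.80, adjusted p of 0.0525 to 0.0702). At 1 d and 3 d neither ischemia time differed from control beyond the threshold, on the logit scale, with limma changes from −0.30 to 0.63 and adjusted p from 0.109 to 0.930, although 55.6 to 88.9% of all clusters were called there. At 14 d after IRI short the change was −0.31 (SE 0.34, limma adjusted p = 0.488, 55.6% of clusters called).

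These uncalled comparisons with control depended on the scale. On the centred log-ratio, which sets each cluster against the mean log of all 18 clusters, limma called principal cells lower at 3 d (−1.31, adjusted p = 0.00151) and 14 d (−1.22, adjusted p = 0.00373) after IRI short, and at 1 d (−1.02, adjusted p = 0.00843) and 3 d (−1.53, adjusted p = 0.00035) after IRI long. At 1 d after IRI short the value turned from 0.63 to −0.51 (limma adjusted p = 0.159). Centring shifts the log of every cluster in a library by the same amount, so these moves are not particular to principal cells. The mean log also takes in clusters such as Mono_2, which held 0 cells in every control library. How many of the 18 clusters were called on this scale is not given here. With the names of the second clustering the change at 3 d after IRI long was also called (−0.97, limma adjusted p = 0.00573). With the barcode set as a term the changes against control were 0.49, −0.18 and −0.45 for IRI short and −0.17, −0.43 and −2.12 for IRI long at 1 d, 3 d and 14 d, and the last alone was called (limma adjusted p = 0.00249). The SE of these changes was 0.51, against 0.34 without the term.

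IRI long and IRI short themselves did not differ beyond the threshold at 1 d (−0.66, limma adjusted p = 0.447, 5.56% of clusters called), a value that ran from −1.21 without IRF5 to −0.10 without IRF1, or at 3 d (−0.26, limma adjusted p = 0.903, 0% of clusters called). Their difference at 14 d was not shown to exceed that at 1 d (−1.02, limma adjusted p = 0.282, 11.1% of clusters called), with −1.57 to −0.46 when single libraries were left out, or at 3 d (−1.42, limma adjusted p = 0.256, 5.56% of clusters called).

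**Figure D1:**
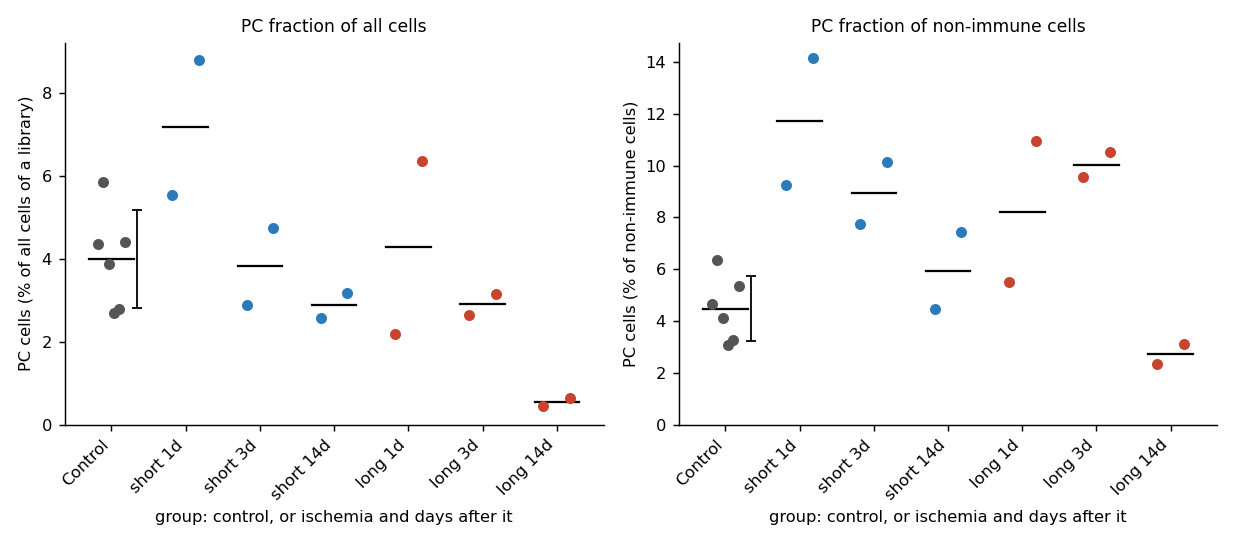
Principal cells as percent of all cells (left) and of non-immune cells (right) of each library, by group. Points are libraries, horizontal lines are group means and the bar beside control is its SD (n = 6). The 2 libraries at 14 d after IRI long are lowest on the left. On the right 1 of them is the lowest (2.34%) and the other (3.10%) lies within the control range.

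Immune cells changed the denominator of these fractions. Their mean fraction was 10.8% in control (range 6.11 to 17.8%), 48.9% after IRI short (37.8 to 62.8%) and 67.4% after IRI long (41.7 to 80.6%). At 14 d after IRI long it was 79.0 and 80.6%. The fractions cannot tell a loss of principal cells from a gain of other cells or from unequal dissociation, and cell numbers per kidney were not analysed here. The fraction was therefore also taken among non-immune cells.

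Among non-immune cells, cells named PC were more frequent after IRI short than in control at 1 d and 3 d, and more frequent after IRI long at 3 d. None of these calls held with the barcode set as a term, which leaves norm5 as the only control compared, as given below. With the names of the second clustering, the libraries at 3 d lay within or below the control range, with 1 exception on another denominator. Control libraries had 3.08, 3.25, 4.13, 4.65, 5.36 and 6.35% principal cells, with a mean of 4.47 ± 1.26% (SD, n = 6). IRI short libraries had 9.27 and 14.2% at 1 d, 7.75 and 10.2% at 3 d, and 4.45 and 7.44% at 14 d. IRI long libraries had 5.52 and 10.9% at 1 d, 9.56 and 10.5% at 3 d, and 2.34 and 3.10% at 14 d. All but 1 of the IRI short libraries lay above every control library, as did 3 of 6 IRI long libraries, and the IRI long libraries at 14 d lay at the low end of the control range (3.10%) or below it (2.34%). By the wider name of the second clustering, the fraction was 5.42 and 5.45% at 3 d after IRI long, below all controls (6.37 to 9.94%), and 8.14 and 9.01% at 3 d after IRI short, within the control range. The second cluster Fibro held almost only cells of first immune clusters, and with it counted as immune the IRI long values at 3 d were 7.25 and 8.55%, within the control range of 6.42 to 10.1%. The IRI short values at 3 d were then 8.94% in IRF3, within that range, and 10.6% in IRF11, above it.

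On this scale limma called the principal cell fraction higher at 1 d after IRI short (1.05, SE 0.33, adjusted p = 0.00690, 77.8% of clusters called), at 3 d after IRI short (0.77, SE 0.33, adjusted p = 0.0441, 77.8% of clusters called) and at 3 d after IRI long (0.90, SE 0.33, adjusted p = 0.0186, 72.2% of clusters called). At 1 d after IRI long the change was 0.63 (SE 0.33, limma adjusted p = 0.103), where 61.1% of the clusters were called. At 14 d it was 0.30 after IRI short (limma adjusted p = 0.423) and −0.48 after IRI long (limma adjusted p = 0.242), with 27.8 and 50.0% of the clusters called. With the barcode set as a term, the changes at 1 d, 3 d and 14 d were 0.83, 0.54 and 0.077 for IRI short and 0.40, 0.68 and −0.71 for IRI long, each with an SE of 0.47, and none was called (limma adjusted p of 0.170 to 0.873). That fit compares with norm5 alone, and its SE is larger than the 0.33 without the term. The lost calls therefore do not show that the changes were absent. The fall at 14 d after IRI long was thus past the threshold among all cells and not among non-immune cells. The difference of IRI long from IRI short at 14 d was −0.78 among non-immune cells (95% interval −1.63 to 0.07, limma adjusted p = 0.309), and over all days it was −0.36 (95% interval −0.85 to 0.13, limma adjusted p = 0.215), with 0% of the clusters called in either. At 1 d and 3 d it was −0.43 and 0.14 (limma adjusted p = 0.693 and 0.835), with 5.56 and 0% of the clusters called. Among non-immune cells the difference at 14 d minus that at 1 d was −0.36 (limma adjusted p = 0.918, 5.56% of clusters called), and minus that at 3 d it was −0.92 (limma adjusted p = 0.712, 0% of clusters called).

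With days together, the mean fraction among non-immune cells was 8.87 ± 3.24% (SD, n = 6) after IRI short and 6.99 ± 3.84% (SD, n = 6) after IRI long. The difference from control was 4.40 percentage points for IRI short (exact permutation p = 0.00866, adjusted p = 0.0606), and it passed the threshold without IRF10, an IRI short library at 14 d (5.28, adjusted p = 0.0152). For IRI long it was 2.52 percentage points (exact permutation p = 0.152, adjusted p = 0.398), and with the second names it turned to −1.38 (exact permutation p = 0.383, adjusted p = 0.610). This turn did not hold with Fibro counted as immune (means of 8.59% after IRI long and 8.12% in control). IRI long was below IRI short by a difference of −1.88 percentage points (exact permutation p = 0.231, adjusted p = 0.442), which ranged from −2.78 without IRF5 to −0.974 without IRF1, both IRI long libraries at 1 d. Against norm5 alone the differences were 3.51 and 1.63 percentage points for IRI short and IRI long. By the second names the IRI short mean was 10.5%, against 8.01% in control. With Fibro counted as immune these means were 12.0 and 8.12%.

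**Figure D2:**
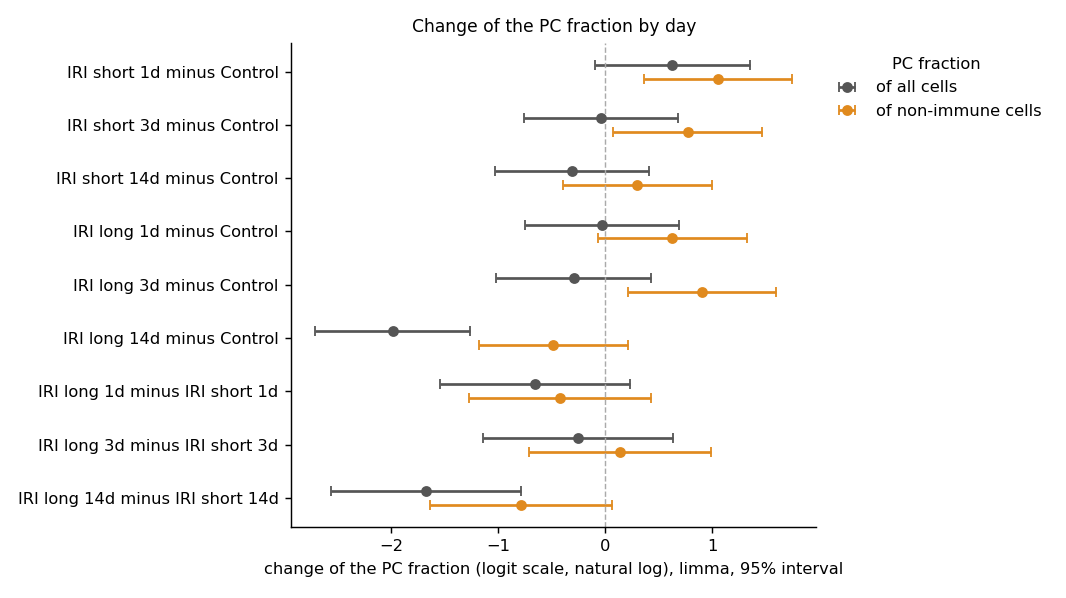
Change of the principal cell fraction in each comparison, on the logit scale (natural log), as a share of all cells (grey) and of non-immune cells (orange). Points are limma estimates and bars their 95% intervals. At 14 d after IRI long the grey interval lies below 0 and the orange one includes 0, whereas at 3 d after IRI long the orange interval lies above 0.

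Relative to intercalated cells, the partner cell type of the collecting duct, principal cells were more numerous in every IRI library than in any control library. The ratio of PC to IC cells is given as log2 with 0.5 cells added to each count, so that 0 means equal numbers. In control it was −1.57, −1.53, 0.22, 0.34, 0.93 and 1.01. After IRI short it was 3.21 and 3.33 at 1 d, 2.08 and 2.27 at 3 d, and 1.03 and 2.33 at 14 d. After IRI long it was 2.70 and 3.12 at 1 d, 2.06 and 3.33 at 3 d, and 1.50 and 1.93 at 14 d. The groups did not overlap, but the lowest IRI library (IRF10, 1.03) lay next to the highest control library (norm5, 1.01).

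The mean log2 ratio was higher than in control by 2.47 after IRI short (6 of 6 libraries above all controls, exact permutation p = 0.00216, adjusted p = 0.0227) and by 2.54 after IRI long (6 of 6 libraries above all controls, exact permutation p = 0.00216, adjusted p = 0.0227). These p-values are the smallest the test allows. Against norm5 alone the differences were 1.37 and 1.43. Leaving out any single library kept both calls, with differences of 2.18 to 2.74 for IRI short and 2.25 to 2.76 for IRI long. IRI long and IRI short differed by 0.07 (exact permutation p = 0.843, adjusted p = 0.843).

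Intercalated cells were also a smaller share of the non-immune cells after IRI, by limma calls that did not hold with the barcode set as a term. Control libraries held 0.335 to 2.01 principal cells per intercalated cell, whereas IRI libraries held 2.04 to 10.8. Intercalated cells were 5.31 ± 3.14% of non-immune cells in control (SD, n = 6), against 1.67 ± 0.530% after IRI short and 1.15 ± 0.569% after IRI long (n = 6 for both). The control mean was raised by norm3 (8.95%) and norm4 (9.68%), while norm5 was the lowest control (2.66%) and lay next to the highest IRI library (IRF3, 2.38%). Among non-immune cells limma called intercalated cells lower at 1 d after IRI short (−1.40) and IRI long (−1.55), at 3 d after IRI short (−0.89) and IRI long (−1.14), and at 14 d after IRI long (−1.77), with adjusted p from 0.000769 to 0.0461. At 14 d after IRI short their change was −0.99 (limma adjusted p = 0.0662). In the same fits the changes from control ran from −0.59 to 0.71 for DCT cells and from −0.23 to 1.36 for LOH cells. All of these lay above the changes of intercalated cells, so a rise relative to intercalated cells was not particular to principal cells. With the barcode set as a term all 6 changes of intercalated cells stayed negative, from −1.19 to −0.31, and none was called (limma adjusted p of 0.111 to 0.722). In that fit, with norm5 as the only control compared, the SE was 0.56, against 0.40 without the term. The lowest numbers of intercalated cells were 6, 11 and 12 per library, all after IRI long, so the ratio is least precise there.

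Ratios to the upstream tubule segments did not separate IRI from control. The log2 ratio of PC to DCT cells was −2.20 to −0.17 in control with a median of −1.35, from −2.34 to 0.22 after IRI short with a median of −0.86, and from −2.27 to 0.97 after IRI long with a median of −0.37. The log2 ratio of PC to LOH cells was −2.75 to −1.21 in control with a median of −2.07, from −2.65 to −1.05 after IRI short with a median of −1.93, and from −2.70 to −0.47 after IRI long with a median of −1.92. Groups overlapped widely, and the control libraries norm3, norm4 and norm5 were lower than the remaining controls in both ratios. Differences from control were 0.41 and 0.68 for DCT and 0.10 and 0.33 for LOH after IRI short and IRI long (exact permutation, adjusted p of 0.530 to 0.836). With single libraries left out, those for DCT ranged from 0.18 to 0.69 after IRI short and from 0.36 to 1.01 after IRI long. Those for LOH ranged from −0.072 to 0.27 and from 0.081 to 0.53. Against norm5 alone the differences were 0.88 and 1.15 for DCT and 0.70 and 0.93 for LOH. With the second names the differences for LOH turned to −0.80 and −0.68 (exact permutation, adjusted p = 0.162 and 0.333). Between IRI long and IRI short they were 0.27 for DCT and 0.23 for LOH (exact permutation, adjusted p = 0.615 for each). These 2 values ranged from 0.099 to 0.45 and from 0.075 to 0.38 when single libraries were left out.

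**Figure D3:**
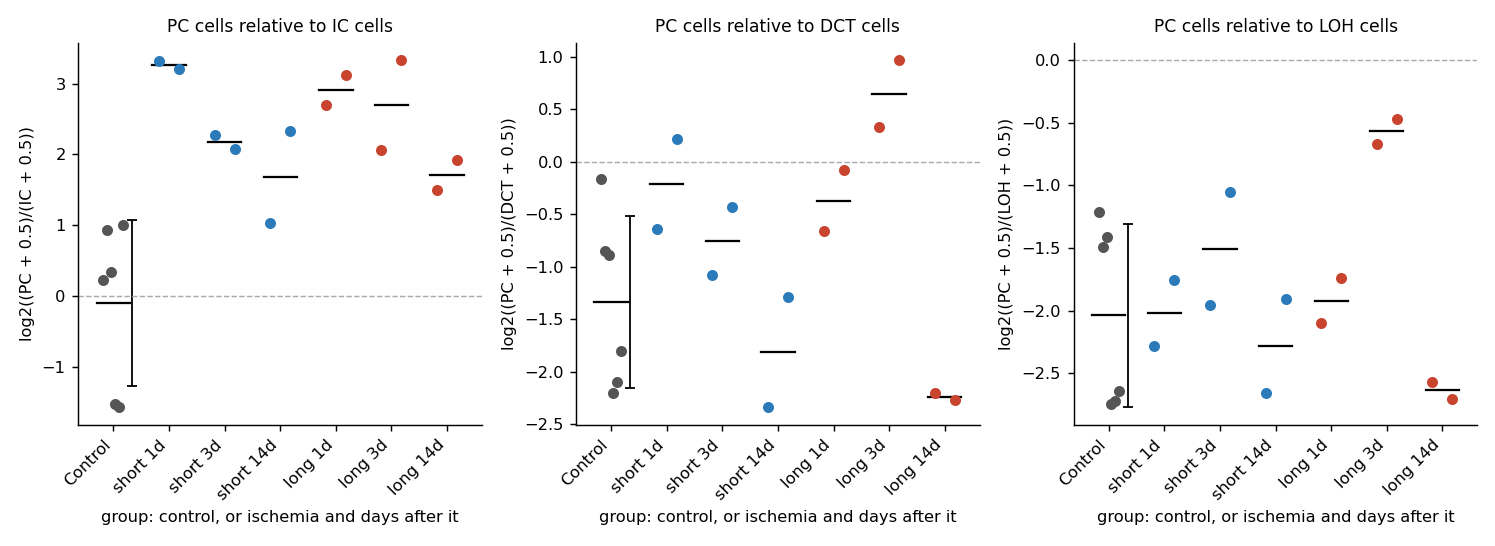
Number of principal cells relative to IC, DCT and LOH cells in each library, as log2 with 0.5 cells added to each count, by group. Points are libraries, horizontal lines are group means, the bar beside control is its SD (n = 6) and the dashed line marks equal numbers. Every IRI library lies above every control library for IC, and groups overlap for DCT and LOH.

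Time after ischemia was a further axis of variation. A comparison of the 4 IRI libraries at 14 d with the 8 at 1 d and 3 d, with labels permuted within each ischemia time, was chosen after the values had been seen. Its p-values, adjusted over 7 measures, therefore describe these libraries. Ratios to DCT showed the widest separation, with −2.34 and −1.28 after IRI short and −2.27 and −2.20 after IRI long at 14 d, against −1.08 to 0.22 and −0.66 to 0.97 at the earlier days. All 4 libraries at 14 d lay below all 8 earlier ones. Control libraries ranged from −2.20 to −0.17, so the values at 14 d lay in or just below the control range.

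The log2 ratio of PC to DCT cells at 14 d differed by −1.85 from that at the earlier days (exact permutation p = 0.00444, adjusted p = 0.0156), and leaving out any single library kept this call (−2.11 to −1.59). The fraction among non-immune cells differed by −5.40 percentage points (exact permutation p = 0.00444, adjusted p = 0.0156), a call lost without IRF10 (−4.66, adjusted p = 0.0533). Both p-values of 0.00444 are the smallest this permutation test allows. The log2 ratios to IC (−1.07, exact permutation p = 0.0267) and LOH (−0.96, exact permutation p = 0.0311) and the fraction of all cells (−2.83 percentage points, exact permutation p = 0.0356) were each lower with an adjusted p of 0.0356. These 3 calls were lost when single libraries were left out, IRF10 and IRF12 among them each time. With the names of the second clustering, the fall relative to LOH turned into a rise, and the falls relative to IC and in both fractions missed the threshold.

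The second clustering gave each principal cell a second name. It joined principal cells with the connecting tubule and the late distal convoluted tubule in a cluster called DCT2, CNT, CD-PC, which took in 3678 of the 4456 principal cells (82.5%). A further 424 principal cells (9.52%) were named LOH, 84 (1.89%) DCT1 and 76 (1.71%) PST, the proximal straight tubule. Each remaining name held under 1% of them. Within the 18 libraries the joint cluster drew 51.5% of its cells from PC, 22.7% from LOH, 22.5% from DCT and 2.42% from PT S3, the last segment of the proximal tubule. The joint name is therefore wider than PC.

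The share of principal cells that kept the joint name varied between libraries. In control it was 76.2, 78.5, 81.0, 83.6, 86.7 and 95.4%, with norm5 the lowest. After IRI short it was 83.1 and 86.1% at 1 d, 73.0 and 73.7% at 3 d, and 70.6 and 79.4% at 14 d. After IRI long it was 75.2 and 87.2% at 1 d, 71.7 and 73.8% at 3 d, and 46.9 and 63.8% at 14 d. The IRI long libraries at 14 d were the lowest, and they were also those with the fewest principal cells. At 14 d the mean over the IRI libraries was 65.2%, against 78.0% at 1 d and 3 d, a difference of −12.8 percentage points in the comparison of days chosen after the values were seen (exact permutation p = 0.0267, adjusted p = 0.0356). That call was lost without IRF8, IRF12 or IRF9. The mean difference from control was −5.89 percentage points for IRI short (exact permutation p = 0.145, adjusted p = 0.398) and −13.8 percentage points for IRI long (exact permutation p = 0.0390, adjusted p = 0.194). With single libraries left out, that for IRI short ranged from −7.58 to −3.53.

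Against norm5 alone the difference for IRI long was −6.43 percentage points, and that for IRI short was 1.48 percentage points. Without IRF5, an IRI long library at 1 d, the difference of IRI long from control passed the threshold (−17.3, adjusted p = 0.0152). IRI long and IRI short differed by −7.91 percentage points (exact permutation p = 0.111, adjusted p = 0.389), with −10.7 to −5.08 when single libraries were left out. Counting any distal name as kept left 84.4 to 95.4% of the principal cells in IRI long libraries and 92.9 to 98.7% in control libraries, a difference of −6.78 percentage points that passed the threshold (exact permutation p = 0.00433, adjusted p = 0.0303). The lowest of these controls was norm5 (92.9%), and against norm5 alone the difference was −3.19 percentage points for IRI long and 1.82 for IRI short.

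**Figure D4:**
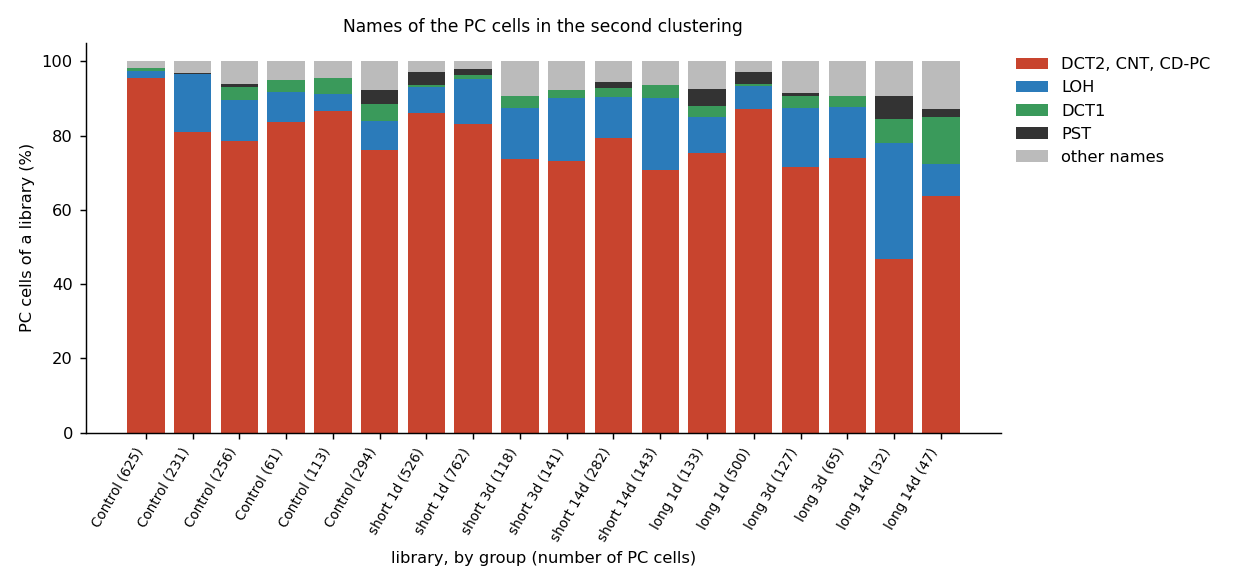
Names that the principal cells of each library received in the second clustering, as percent of the library's principal cells. Bars are libraries, labelled with their group and number of principal cells, and colours are names holding at least 1% of all principal cells. The joint name (red) covers 46.9 and 63.8% in the IRI long libraries at 14 d and 70.6% or more in every other library.

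The reverse view differed more between days. Of the cells that the second clustering put in the joint cluster, the share drawn from PC was 33.8 to 57.2% in control libraries. At 14 d it was 33.6 and 44.7% after IRI short and 14.7 and 25.0% after IRI long, while at 1 d and 3 d it was 46.8 to 73.8% over the 8 IRI libraries. The share drawn from DCT was 19.9 to 39.5% in control, 31.0 and 43.8% at 14 d after IRI short, and 26.5 and 35.8% at 14 d after IRI long. At 1 d and 3 d it was 1.54 to 22.6% over the 8 IRI libraries, below each value at 14 d. These values moved with the ratio to DCT described above, and their part in it was not tested. First names other than PC, LOH and DCT made up 0 to 5.66% of the joint cluster in all but the IRI long libraries at 14 d. There they were 37 of 102 cells in IRF12 (36.3%), of which 31 were PT S3, and 9 of 120 cells in IRF9 (7.5%). The joint cluster was 1.45 and 1.66% of all cells in the IRI long libraries at 14 d, against 6.11 to 9.37% in control. With its names, limma also called the fraction lower at 14 d in IRI long than in control (−1.61, adjusted p = 9.5e-05) and than in IRI short (−1.31, adjusted p = 0.0177). Relative to the intercalated cell cluster of the second clustering, CD-IC, the log2 differences from control were 1.98 for IRI short and 1.94 for IRI long (exact permutation p = 0.00216, adjusted p = 0.0227 for each). Against norm5 alone these differences were 1.05 and 1.00.

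On the UMAP of the first clustering principal cells formed a compact group. Of the 30 nearest cells of each principal cell, 91.6% were principal cells, 5.88% were LOH and 1.13% were DCT, and 2967 principal cells (66.6%) had no other neighbour than principal cells. Under 50% of the neighbours were principal cells for 295 of them (6.62%), and LOH was the leading neighbour of 235 of these. Intercalated cells lay apart, with 0.112% of the neighbours. The principal cells renamed LOH sat toward that cluster, with 19.8% LOH neighbours against 3.65% for those that kept the joint name. Those renamed PST had 26.8% LOH neighbours, and those renamed DCT1 had 6.51% DCT neighbours against 1.10% for those that kept the joint name.

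The position of principal cells on the first UMAP axis also differed between IRI and control libraries. This axis has no unit, and the measure was chosen after the values were seen, so it is given without a test. The median position per library was −0.03, −0.02, −0.02, 0.08, 0.14 and 0.43 in control, and in IRI short it was between −0.30 and −0.13. In IRI long it was between −0.57 and −0.19, with the lowest medians, −0.57 and −0.52, in the libraries at 14 d. No IRI library reached the control range, whereas IRI short and IRI long overlapped each other, and norm5 (0.08) lay among the controls. LOH neighbours made up 5.66 to 11.3% of the neighbours of principal cells in control libraries, 3.54 to 6.62% after IRI short and 0.205 to 5.63% after IRI long.

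Distance from the centre of the control principal cells did not differ between the groups beyond the threshold. The median distance per library was 1.36 ± 0.095 UMAP units in control (SD, n = 6), against 1.28 ± 0.091 after IRI short and 1.30 ± 0.153 after IRI long (n = 6 for both). Differences from control were −0.08 for IRI short (exact permutation p = 0.175, adjusted p = 0.400) and −0.06 for IRI long (exact permutation p = 0.392, adjusted p = 0.610), and against norm5 alone −0.07 and −0.06. On the map of the second clustering the difference for IRI long turned to 0.215 (exact permutation p = 0.392, adjusted p = 0.610). IRI long and IRI short differed by 0.02 (exact permutation p = 0.796, adjusted p = 0.836). At 14 d the IRI medians were 1.28, 1.38, 1.42 and 1.53, against 1.12 to 1.36 at 1 d and 3 d, a difference of 0.17 in the comparison chosen after the values were seen (exact permutation p = 0.0267, adjusted p = 0.0356). This call was lost without IRF8, IRF4 or IRF9.

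**Figure D5:**
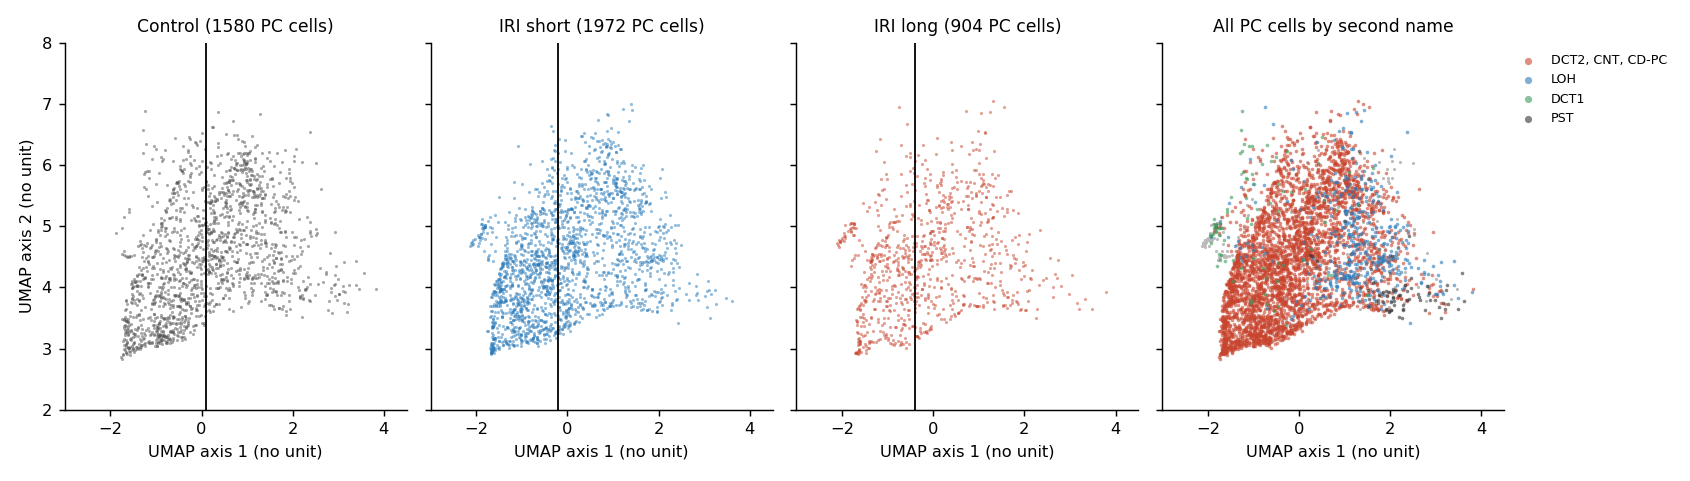
Principal cells on the UMAP of the first clustering (axes without unit) in control, IRI short and IRI long, and, on the right, all principal cells coloured by their second name. Points are cells, and vertical lines mark the mean over libraries of the median position on axis 1. The line moves from 0.10 in control to −0.20 after IRI short and −0.39 after IRI long, cells renamed LOH lie to the right, and 20 cells outside the plotted window are not drawn.

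The inhibitor libraries were named only in the second clustering, and with 1 library per treatment no test was made. Cells with the joint name were 4.62% of all cells with VX-765 (exact 95% binomial interval 4.23 to 5.03%) and 2.48% with liproxstatin (2.22 to 2.77%). In the untreated IRI long libraries at 14 d the fractions were 1.45 and 1.66%, in IRI short at 14 d 5.00 and 6.10%, and in control 6.11 to 9.37%. Both treated libraries lay above the untreated IRI long libraries at 14 d and below all controls.

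The order changed with the denominator. Immune cells were 11.8% of the VX-765 library and 5.13% of the liproxstatin library, against 64.5 and 75.2% of the untreated IRI long libraries at 14 d by the second names. Among non-immune cells the joint name held 5.23% with VX-765 and 2.62% with liproxstatin, against 4.67 and 5.84% untreated and 6.37 to 9.94% in control. By the joint name the liproxstatin library was thus below both untreated libraries, and the VX-765 library lay between them. This place of the VX-765 library rested on the cells of IRF12 with other first names. Without cells whose first name was none of PC, LOH and DCT, the untreated values were 3.72% in IRF12 and 4.32% in IRF9, both below the VX-765 library and above the liproxstatin library, which have no first names and could not be treated alike. A second cluster named Fibro consisted to 99.0% of cells that the first clustering put in immune clusters. With Fibro counted as immune, the values were 5.36% with VX-765, 2.65% with liproxstatin, and 6.22 and 8.08% untreated, or 5.75 and 5.15% without those cells.

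The name PC itself was also carried to the inhibitor libraries, by a majority of the nearest cells of other libraries on the second map. Carried PC cells were 2.48% of all cells with VX-765 and 1.29% with liproxstatin, against 0.482 and 0.664% untreated. Among non-immune cells they were 2.81% with VX-765 and 1.35% with liproxstatin, against 1.87 and 1.95% untreated and 2.54 to 4.78% in control. By this name the VX-765 library lay above both untreated libraries and the liproxstatin library below both. In the untreated libraries 58.8 and 75.0% of the carried PC cells held the name PC in the first clustering, so this is an estimate. Fibro counted as non-immune here. Non-immune cells without Fibro numbered 1263 in IRF12 (34 carried PC cells) and 1929 in IRF9 (48). They numbered 9137 with VX-765 (263 carried PC cells) and 11817 with liproxstatin (162). The order is the same on that denominator, but the VX-765 library lies closer to the untreated ones. No counting interval was taken for carried cells. With 34 and 48 of them in the untreated libraries, the place of the VX-765 library relative to these is uncertain.

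Per cell of the cluster CD-IC, the joint cluster held 1.84 cells with VX-765 and 3.10 with liproxstatin. The untreated IRI long libraries at 14 d held 5.67 and 8.0 (3.61 and 7.40 without the cells of other first names), and control libraries 0.865 to 3.33. Both treated libraries lay within the control range, at 267 and 101 cells named CD-IC against 18 and 15 in the untreated libraries. Treatment cannot be told apart from the experiment and library here, since the inhibitor libraries came from a second set of mice.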

How the data were processed

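Single-cell libraries of mouse kidney were analysed from the cell labels that the authors deposited: a cluster name, a group with its day, and UMAP coordinates, which are a score without unit. To make them the authors used Cell Ranger on 10X reads, kept cells within limits on detected genes and mitochondrial share, took out doublets, and clustered with LIGER and manual naming. The labels name the builds mm10 and GRCm38, and the paper describes the second clustering as a LIGER integration of 20 libraries with like filters, for a total cell number other than that of the table used here. No UMI counts were used, and depth here means cells per library (2064 to 14320).

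Members were cells named PC. Libraries were identified by the shared start of their cell names and assigned to groups by the labels of their cells, not to replicate numbers. In the first clustering, clusters named for granulocytes, monocytes, macrophages, T or B cells counted as immune. In the second clustering these were the clusters named for neutrophils, macrophages, T, B or natural killer (NK) cells. Each library was treated as 1 replicate, whereas the study's own proportion test permuted cells. By the paper each library of the first clustering is 1 mouse.

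Differences of group means were tested by exact two-sided permutation (924 ways, or 216 within days), adjusted with the Benjamini-Hochberg method over 21 tests. The comparison of 14 d with earlier days used 225 ways and 7 tests. For single days, limma 3.58.1 (R 4.3.3) was fitted to logit fractions after adding 0.5 cells, with 7 group means and adjustment over 18 clusters. With the names of the second clustering adjustment was over 19 clusters, and the share of them called is not given here. Both tests were tested on simulated data, with no outcome given here. For non-immune fractions limma was run on immune and non-immune clusters apart, with all 18 adjusted together. Distances on the UMAP were taken to the median position of control principal cells. Clusters beside PC were named by a rule: IC, DCT and LOH, and names holding at least 1% of the cells or neighbours concerned. Fibro and CD-IC were named after their values were seen. Members, lists and tests were chosen with earlier results of these data known. Computations used python 3.11.15, numpy 2.4.6, pandas 2.3.3, scipy 1.17.1 and matplotlib 3.10.9.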

Additional observations from a re-analysis of the deposited data

How the results depend on the processing

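No paired analysis was possible because the libraries carry no replicate numbers. Of 158 alternative values, 112 counted as unchanged. For values with a test, unchanged meant the same direction and side of the threshold. For values without a test, it meant a move smaller than the SD of the reference group, or a place inside a binomial interval. Of 552 values with a library left out, all with a test, 509 kept their direction and side of the threshold. The cause of the changes below was not tested.

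With the names of the second clustering, the fraction of all cells gave −0.461 percentage points for IRI short against control, and IRI long against IRI short gave −3.48 (adjusted p = 0.0486), and the non-immune fraction gave −1.38 for IRI long against control. That turn did not hold with Fibro counted as immune, with means of 8.59% after IRI long and 8.12% in control. The log2 ratio to IC gave −0.044 for IRI long against IRI short, and that to LOH −0.80 and −0.68 for IRI short and IRI long against control. At 14 d against earlier days the same names gave −2.42 (all cells), −2.29 (non-immune), −2.64 (non-immune with Fibro as immune), −0.24 (IC) and 0.39 (LOH, adjusted p = 0.0489), and limma gave −0.97 at 3 d after IRI long against control (adjusted p = 0.00573). Against norm5 alone the kept name differed by 1.48 for IRI short and −6.43 for IRI long. Any distal name gave −6.78 for IRI long against control and −3.80 at 14 d, and against norm5 alone 1.82 for IRI short and −3.19 for IRI long. The log2 ratio to CD-IC gave 1.05 and 1.00 against norm5 alone. The 20-library map gave a distance of 0.215 for IRI long against control. With the centred log-ratio, limma against control gave −0.51, −1.31 and −1.22 for IRI short at 1 d, 3 d and 14 d, and −1.02 and −1.53 for IRI long at 1 d and 3 d, of which all but the first were called (adjusted p of 0.00035 to 0.00843). Per non-immune cell, limma against control gave 1.05, 0.77 and 0.30 for IRI short and 0.63, 0.90 and −0.48 for IRI long at 1 d, 3 d and 14 d, and IRI long against IRI short gave −0.36 over all days, 0.14 at 3 d and −0.78 at 14 d. With the barcode set as a further term, chosen like the last comparisons with norm5 after seeing the data, the values against control were 0.83, 0.54 and 0.077 for IRI short and 0.40, 0.68 and −0.71 for IRI long, with no call. The VX-765 value moved to 5.23%, and to 5.36% with Fibro as immune. Without cells whose first name was none of PC, LOH and DCT, the untreated non-immune value of IRF12 moved from 5.84 to 3.72%.

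With each library left out in turn, ranges for IRI short against control were −0.208 to 1.04 (all cells), 3.34 to 5.28 (non-immune) and −0.072 to 0.27 (LOH). IRI long against control ranged from −17.3 to −9.21 for the kept name. IRI long against IRI short ranged from −0.15 to 0.28 for IC and from −0.023 to 0.055 for the distance. At 14 d against earlier days, ranges were −3.26 to −2.28 (all cells), −6.15 to −4.66 (non-immune), −1.39 to −0.74 (IC), −1.14 to −0.77 (LOH), −17.0 to −8.55 (kept name) and 0.14 to 0.20 (distance). Here the call on all cells was lost without IRF10, IRF8, IRF12 or IRF9, that on IC without IRF10 or IRF12, that on LOH without IRF3, IRF10, IRF4, IRF7, IRF12 or IRF9, and that on the kept name without IRF8, IRF12 or IRF9. In limma, ranges were −0.30 to 0.22 for IRI short at 3 d and −0.59 to 0.53 for IRI long at 1 d against control, −1.05 to −0.68 for IRI long against IRI short over all days, −0.51 to 0.00287 at 3 d and −1.85 to −1.50 at 14 d. In 21 groups of libraries no single library stood apart by Dixon's test.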
